A study of Mus musculus with 36 samples.

Results

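The genes described here are 10 genes of the extracellular matrix in the mouse kidney: the collagen genes Col1a1, Col1a2, Col3a1 and Col4a1, the crosslinking enzyme gene Lox, the elastic fibre gene Emilin1, the glycoprotein genes Fn1 and Sparc, and the protease genes Adamts1 and Adamts5. Members were taken as the probe sets whose only gene symbol is 1 of these 10, which gave 18 of the 45141 probe sets on the array, where 17097 genes have a probe set of their own. Lox has 3 such probe sets, Adamts5 has 4, Col3a1, Col4a1 and Sparc have 2 each, and the other 5 genes have 1. The study asked how the kidney responds to short diets that do or do not protect it against ischemia-reperfusion injury. Total RNA of whole kidney from male C57BL/6 mice of 10 to 12 weeks was hybridised to 36 arrays of the type Affymetrix HT MG-430 PM, each with the kidney RNA of 1 mouse.

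One cohort held 4 mice after 3-day fasting and 5 mice with free access to the standard SDS chow. The other held 5 mice after 14-day 30%DR (dietary restriction), their 3 SDS controls, and 5 mice each on the Control diet, the 3-day protein-free diet and the 3-day carbohydrate-free (CHO-free) diet, with 4 on the 3-day fat-free diet. The restricted mice were fed once daily at a set hour while their SDS controls ate freely, so the amount and the timing of food cannot be told apart. The protein-free, CHO-free and fat-free diets share the same 5 Control mice, so a low or high Control value enters all of these comparisons. Mice were housed several to a cage, and cage mates are not named in the labels. Signals are log2 values after RMA, so a difference of 1 is a doubling. A probe set was called when its fold change was at least 1.5 and its false discovery rate by limma was under 5% over all probe sets. This rate is the adjusted p below, and a called probe set is a differentially expressed probe set (DEPS).

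The matrix between and beneath the cells of the kidney is made of collagen fibrils, sheets of basement membrane and adhesive glycoproteins. Fibroblasts and pericytes make most of the fibrillar collagens, types I and III, while type IV collagen is the network of the basement membranes around tubules, glomeruli and vessels. Lysyl oxidase crosslinks collagen and elastin outside the cell, and ADAMTS proteases cut proteoglycans such as versican and aggrecan, so the amount of matrix depends on making, joining and cutting together. In whole kidney RNA, fewer cells of a type and less RNA per cell cannot be told apart.

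The promoters of 3 members called lower after fasting are shown with the motifs found in them in capitals. Among mice of 1 group these genes varied together little, with a Pearson r over 36 arrays of 0.31 for Col3a1 and Sparc, 0.14 for Adamts1 and Sparc and 0.03 for Col3a1 and Adamts1. They are the 250 bases before the RefSeq start of each gene on build GRCm38.p6, read 5′ to 3′ on the strand of the gene, at chr1:45311288-45311537 on the plus strand for Col3a1, chr11:55420081-55420330 on the minus strand for Sparc and chr16:85803114-85803363 on the minus strand for Adamts1.
Col3a1: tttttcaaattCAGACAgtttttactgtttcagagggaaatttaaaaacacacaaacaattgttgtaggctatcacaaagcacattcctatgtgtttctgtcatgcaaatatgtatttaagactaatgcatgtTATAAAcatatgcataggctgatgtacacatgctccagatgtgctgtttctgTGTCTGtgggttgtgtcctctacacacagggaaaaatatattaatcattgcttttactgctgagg
Sparc: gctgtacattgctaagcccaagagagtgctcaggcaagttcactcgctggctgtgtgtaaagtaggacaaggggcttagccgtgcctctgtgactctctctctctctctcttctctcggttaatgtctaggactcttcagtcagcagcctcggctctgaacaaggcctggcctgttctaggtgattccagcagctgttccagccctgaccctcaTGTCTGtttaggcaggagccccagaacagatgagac
Adamts1: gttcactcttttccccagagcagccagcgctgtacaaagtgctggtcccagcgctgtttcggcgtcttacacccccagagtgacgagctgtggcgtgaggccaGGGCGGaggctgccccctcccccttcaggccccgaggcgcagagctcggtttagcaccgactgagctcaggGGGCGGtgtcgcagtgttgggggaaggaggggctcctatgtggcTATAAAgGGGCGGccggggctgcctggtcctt
Searched for on both strands were the letters TATAAA (the TATA box), CCAAT (known to be bound by NF-Y), GGGCGG (the GC box), TGACTCA (the AP-1 element) and CAGACA (an element that SMAD proteins, which carry TGF-beta signals, are known to bind). No printed match overlaps another. With positions counted back from the start, Col3a1 holds CAGACA at -239 and, on the other strand as TGTCTG, at -65, with TATAAA on its own strand at -117. Sparc holds CAGACA on the other strand at -36. Adamts1 holds no CAGACA but TATAAA at -32 and GGGCGG at -147, -76 and -25. Of all 32851 promoter windows of this kind, 17.1% hold CAGACA, 12.4% TATAAA, 32.7% GGGCGG, 33.8% CCAAT and 4.46% TGACTCA, so these letters are common and a match is a description only. Of the 10 members, 6 were in the promoter table, and Col1a1, Lox, Fn1 and Adamts5 were not. Emilin1 was also lower after fasting, and its window, which holds CAGACA at -129, is not printed because it lies inside the span that RefSeq lists for the gene.

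**Figure D1:**
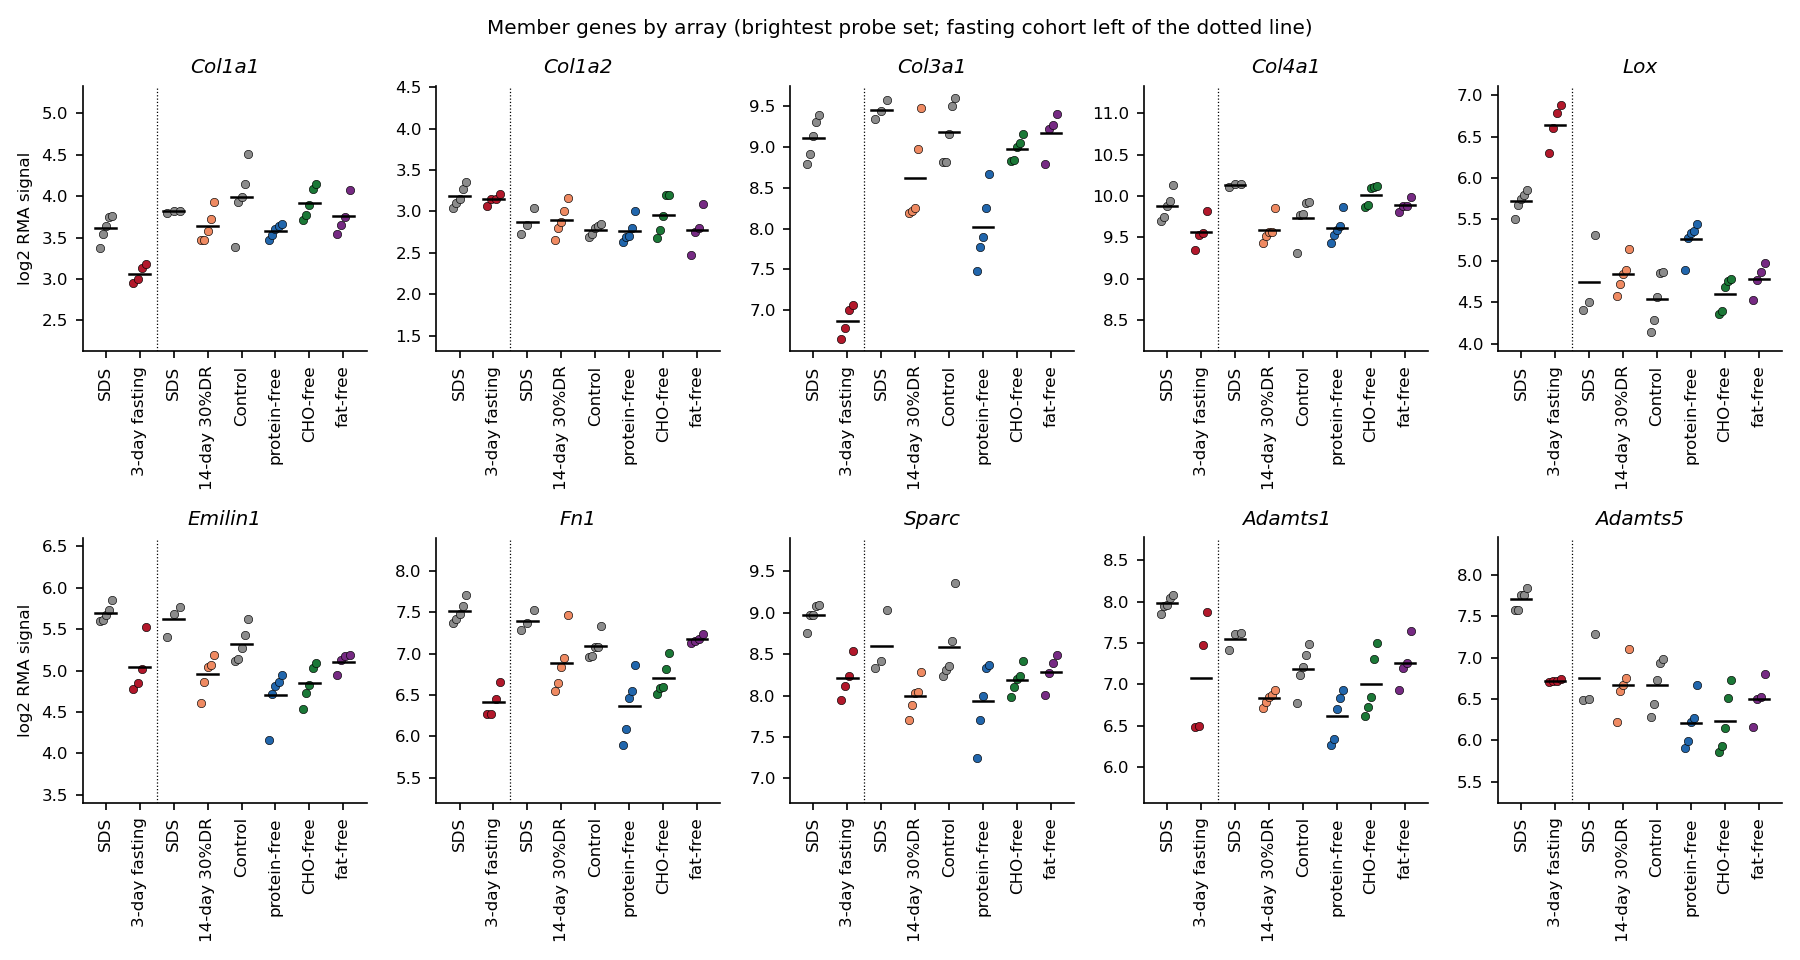
Log2 RMA signal of the 10 member genes (y axes) on every array, grouped by diet on the x axis, for the brightest probe set of each gene. Points are mice, bars are group means, grey points are control groups, and the dotted line separates the fasting cohort, which was normalized apart. The 4 fasted mice lie at 6.65 to 7.06 for Col3a1 and their controls at 8.79 to 9.39, while no diet group stands apart for Col1a2.

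After 3-day fasting 6 of the 10 genes were lower and 1 was higher. Of the 18 member probe sets 9 were lower and 2 higher, while 5.31% of all probe sets were called in this comparison, 2.63% higher and 2.68% lower. The members, and the further gene lists below, were chosen with earlier results of these data known. Their counts beside such shares, here and below, are therefore a description only and no test of enrichment. By the brightest probe set of each gene, Col3a1, Fn1, Adamts5, Adamts1, Sparc and Emilin1 were lower, Lox was higher, and Col1a1, Col1a2 and Col4a1 did not pass. The median log2 fold change of the 10 members was -0.71, against 0.00 for all probe sets. All fasted arrays lay below every control array for 11 of the 18 member probe sets and above for 2, where the shares over all probe sets were 8.58% and 8.63%.

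Col3a1, the gene of fibrillar type III collagen, changed most among the members. Its log2 signals were 8.79, 9.30, 8.91, 9.39 and 9.13 in the SDS controls and 7.06, 6.65, 7.01 and 6.79 in the fasted mice. The groups lay well apart, with more than 1 log2 unit between the lowest control and the highest fasted mouse. The fold change was -2.23 on the log2 scale (SE 0.13, adjusted p = 1.05e-06, limma), or 4.69-fold lower. A dimmer Col3a1 probe set, whose mean is not above every background control probe set of the array, gave -1.07 (SE 0.10).

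Fn1 encodes fibronectin, an adhesive protein onto which collagen fibrils assemble. The SDS controls had log2 signals of 7.41, 7.71, 7.37, 7.57 and 7.47, and the fasted mice had 6.27, 6.27, 6.45 and 6.65. Every fasted mouse was below every control, and the log2 fold change, with an SE of 0.10, was -1.10 (adjusted p = 1.83e-05, limma). Sparc, which encodes a collagen-binding matricellular protein, went from 8.97 ± 0.13 (SD, n = 5) to 8.21 ± 0.25 (SD, n = 4), again without overlap (log2 fold change -0.77, SE 0.11). Its other probe set gave -0.50 (SE 0.09), which is under the fold change minimum.

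Lox was the member that rose. Its brightest probe set read 5.80, 5.86, 5.68, 5.51 and 5.74 in the controls and 6.88, 6.30, 6.60 and 6.78 in the fasted mice. The lowest fasted mouse was above the highest control, and the log2 fold change was 0.93 (SE 0.11, adjusted p = 0.00019, limma). The second Lox probe set rose by 1.04 (SE 0.13), and the third, which sits at the level of the background control probe sets, gave 0.00 (SE 0.07). Emilin1, the gene of an elastic fibre glycoprotein, went the other way, from 5.69 ± 0.10 (SD, n = 5) to 5.04 ± 0.34 (SD, n = 4) and its log2 fold change was -0.65 ± 0.13 (SE, adjusted p = 0.00517, limma). The call on Emilin1 rests in part on fasted mouse K340, without which the value was -0.56 and under the fold change minimum, and a fit with the mean adipocyte marker signal as a covariate did not call it either (-0.50).

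The 2 protease genes fell with unequal spread between mice. Adamts5 had log2 signals of 7.75, 7.75, 7.58, 7.58 and 7.85 in the controls and 6.72, 6.74, 6.71 and 6.70 in the fasted mice (log2 fold change -0.98, SE 0.07, adjusted p = 3.45e-06, limma). On this brightest probe set the fasted mice lay within 0.04 of each other, far closer than the controls. Another 2 Adamts5 probe sets fell by 1.43 (SE 0.06) and 1.29 (SE 0.16) on the log2 scale, and the last, at background, gave -0.01. The close spread did not hold on the probe set that fell by 1.43, with an SD of 0.11 in the fasted mice and 0.05 in the controls. On the one that fell by 1.29 these were 0.21 and 0.33. Adamts1 read 7.95, 8.08, 7.96, 8.04 and 7.86 in the controls and 6.50, 6.49, 7.87 and 7.48 in the fasted mice. Fasted mouse K343 thus lay in the range of the controls, while K339 and K340 were far below it. The log2 fold change of Adamts1 was -0.89 (SE 0.25, adjusted p = 0.0261, limma), and with 1 mouse left out its adjusted p rose above 0.05 in 6 of 9 cases, as it did with the adipocyte markers as a covariate (-0.79, adjusted p = 0.0765).

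The remaining collagens did not pass in the fasting comparison. Col4a1, of the basement membrane, had -0.32 (SE 0.11, adjusted p = 0.0577, limma), and its other probe set -0.43 (SE 0.09, adjusted p = 0.0044), which is under the fold change minimum. Col1a1, which encodes a chain of fibrillar type I collagen, had -0.54 (SE 0.09, adjusted p = 0.00117) and also missed that minimum, although all 4 fasted mice, at 2.95 to 3.18, were below the controls, at 3.37 to 3.75. Col1a2, the partner chain, had -0.04 (SE 0.07). The means of the Col1a1 and Col1a2 probe sets, each the only one of its gene, are not above all 23 background control probe sets, so these arrays say little on type I collagen. In all, 13 member probe sets in the fasting cohort and 12 in the other cohort were above all of them.

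**Figure D2:**
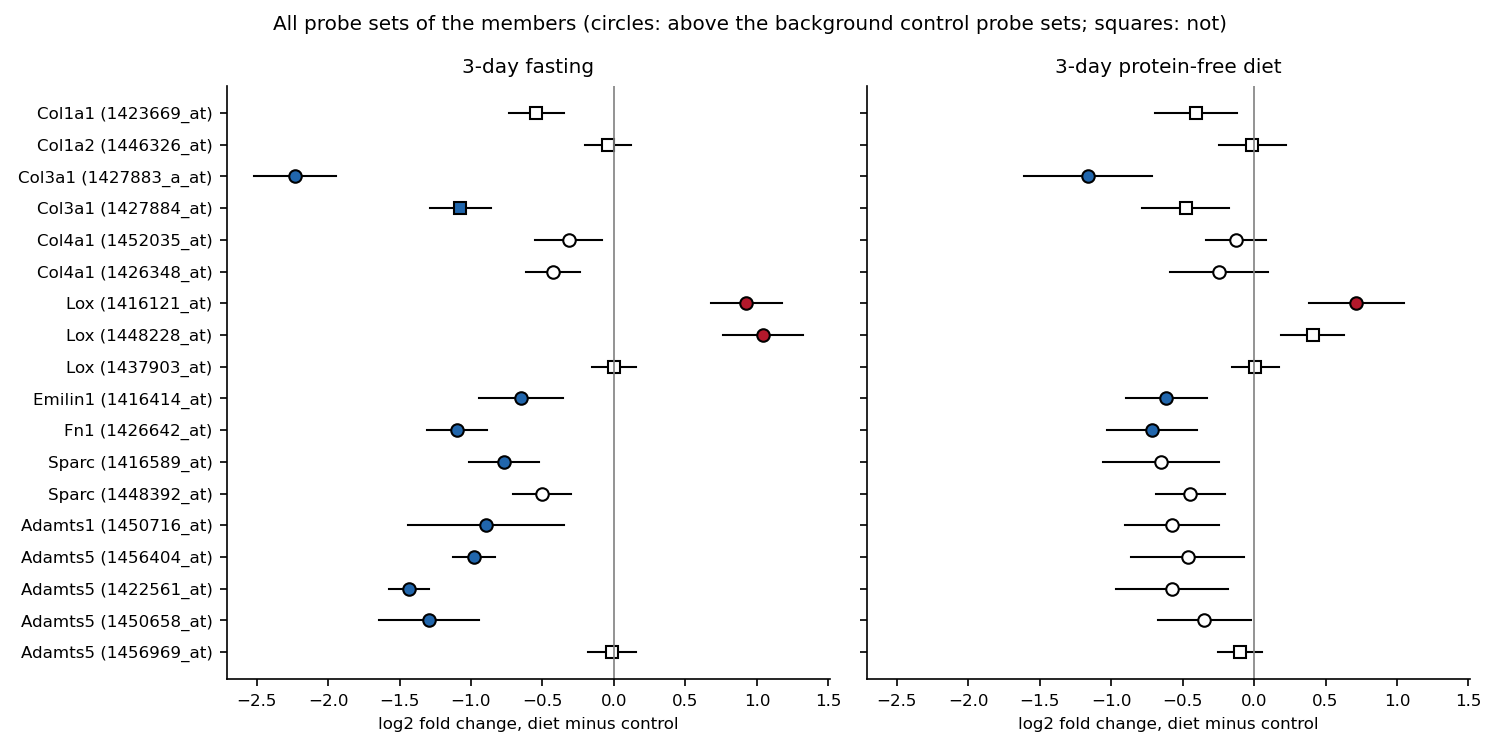
Log2 fold change (x axis) of every member probe set (y axis) after 3-day fasting and on the protein-free diet, with 95% intervals. Filled points were called, blue lower and red higher, and squares mark probe sets whose mean is not above all background control probe sets. Probe sets of 1 gene that are above background point the same way, while the background probe sets of Lox and Adamts5 lie at 0.00 and -0.01 after fasting.

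Markers of other cells moved in the same mice. After fasting 3.52% of all genes were called lower and 2.93% higher by their brightest probe set. Of 10 macrophage and leukocyte markers 6 were lower after fasting and 0 higher. Their mean log2 signal was 6.75 to 7.13 in the controls and 6.19 to 6.48 in the fasted mice, without overlap, and C1qb, a complement gene of macrophages, fell by 0.92. On the CHO-free diet 2.61% of all genes were called lower and 1.5% higher, and of these 10 markers 2 were lower and 0 higher. Their mean was 6.00 to 6.26 there and 6.34 to 6.88 on the Control diet, again without overlap. Of all probe sets, 2.37% had every CHO-free array below every Control array. Of 7 fibroblast and pericyte markers 1 was higher (Pdgfra, 0.75) and 1 lower (Dpt, -0.61), and the mean of the list was 6.44 to 6.56 in the controls and 6.51 to 6.54 in the fasted mice. The Pdgfra probe set is not above all background control probe sets, and that of Dpt is. Of 4 smooth muscle markers Acta2 was lower (-0.60), and of 8 endothelial markers none was called. Of the other lists, 1 of 5 podocyte markers was higher (Wt1, 0.66, not above all background control probe sets). Lower were 1 of 5 proximal tubule markers (Slc5a2, -0.89) and 1 of 3 distal convoluted tubule markers (Pvalb, -1.01). The mean of the thick ascending limb list was 11.06 to 11.18 in the controls and 10.90 to 10.97 in the fasted mice, with 4 of 4 markers below 0. That of the distal convoluted tubule list was 8.43 to 8.76 and 8.32 to 8.42, with 1 of 3 markers below 0. Neither of these lists overlapped between the groups, where 8.58% of all probe sets had every fasted array below every control array. The mean of the 2 measured adipocyte markers was 7.96 to 8.93 in the controls and 7.25 to 10.63 in the fasted mice, and neither marker was called. The part of these markers in the changes of the members was not tested. The tissue label was borne out by the markers of proximal tubule, thick ascending limb, distal convoluted tubule and collecting duct, of which all 16 measured were above background.

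On the protein-free diet Col3a1, Fn1 and Emilin1 were lower and Lox was higher. Of the 18 member probe sets 3 were lower and 1 higher, against 0.738% of all probe sets called (0.288% lower, 0.45% higher). For all 4 of these genes the groups did not overlap. The median of the 10 members was -0.52 on the log2 scale, against 0.01 for all probe sets. Of the 18 probe sets, 5 had every protein-free array below every Control array and 2 above, where 1.48% and 1.97% of all probe sets did.

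Col3a1 had log2 signals of 9.60, 8.81, 9.50, 9.15 and 8.82 on the Control diet and 8.67, 7.89, 7.78, 7.48 and 8.25 on the protein-free diet. The groups were separate but close, with 0.15 between mouse TS49 and the lowest Control mouse. The log2 fold change was -1.16 (SE 0.22, adjusted p = 0.00388, limma) and was called with each mouse left out in turn. The dimmer Col3a1 probe set gave -0.48 (SE 0.15, adjusted p = 0.104), with no overlap either.

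Fn1 read 6.97, 6.96, 7.33, 7.09 and 7.09 on the Control diet and 6.86, 6.47, 6.09, 5.89 and 6.55 without protein. The same mouse TS49 was nearest to the controls, and TS52 was lowest for Fn1 as for Col3a1. The log2 fold change was -0.71 (SE 0.15, adjusted p = 0.0108, limma). Emilin1 was at 5.11 to 5.62 on the Control diet and 4.16 to 4.95 without protein (log2 fold change -0.61, SE 0.14, adjusted p = 0.0156), and was no longer called without Control mouse TS28 (-0.54), without Control mouse TS30 (-0.58) or without protein-free mouse TS52 (-0.48).

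Lox had 4.86, 4.28, 4.86, 4.14 and 4.57 on the Control diet and 5.27, 4.88, 5.36, 5.33 and 5.45 on the protein-free diet. The lowest protein-free mouse, TS50, was 0.02 above the highest Control mice. The log2 fold change was 0.72 (SE 0.16, adjusted p = 0.0166, limma), and it was no longer called without Control mouse TS27 (adjusted p = 0.057) or TS29 (adjusted p = 0.0686). The second Lox probe set gave 0.41 (SE 0.11, adjusted p = 0.0447), under the fold change minimum, with every protein-free mouse above every Control mouse.

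The other members were not called on the protein-free diet. Sparc had -0.65 (SE 0.20, adjusted p = 0.0955, limma), Adamts1 -0.57 (SE 0.16, adjusted p = 0.066) and Adamts5 -0.46 (SE 0.19, adjusted p = 0.277). Col4a1 had -0.13 (SE 0.10) and Col1a1 -0.41 (SE 0.14). Leaving out Control mouse TS26 or protein-free mouse TS50 brought Adamts1 past the threshold, and leaving out protein-free mouse TS54 did so for Sparc. Of all genes by their brightest probe set, 0.497% were called lower and 0.526% higher on this diet. Among the markers, 6 of 7 genes of dividing cells were lower. Their mean log2 signal was 3.66 to 4.37 on the Control diet and 3.06 to 3.19 without protein, but none of the 7 is above all background control probe sets over the arrays. No macrophage, fibroblast, smooth muscle or endothelial marker was called on this diet. RNA integrity, read from how far the 3′ Gapdh control probe set exceeds the 5′ one, also moved: this excess was 0.82 ± 0.14 (SD, n = 5) in Control and 1.34 ± 0.59 (SD, n = 5) in protein-free kidneys. With this excess as a covariate 4 member probe sets were called, as without it, but Emilin1 was not among them (-0.54).

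After 14-day 30%DR, Emilin1 and Adamts1 were lower and no member was higher. That is 2 of 18 probe sets, against 0.919% of all probe sets, 0.45% lower. Emilin1 went from 5.68, 5.41 and 5.76 in the SDS controls to 5.19, 4.61, 5.05, 5.07 and 4.86 (log2 fold change -0.66, SE 0.16, adjusted p = 0.0271, limma). Adamts1 went from 7.62, 7.42 and 7.60 to 6.84, 6.93, 6.72, 6.87 and 6.79 (log2 fold change -0.72, SE 0.18, adjusted p = 0.0449, limma). No restricted mouse reached the lowest control for either gene, and the restricted mice spread over 0.22 for Adamts1, where fasted mice had spread over 1.38. With 1 of the 8 mice left out, Adamts1 was called in 0 cases and Emilin1 in 3, none of them a case without a control, and neither was called in a fit with the mean adipocyte marker signal as a covariate. This signal was 9.15 to 10.2 in the SDS controls and 8.36 to 8.93 in the restricted mice, over the 2 of 5 adipocyte markers measured, and the part of fat tissue in these values was not tested.

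Col3a1 after 30%DR depended on the mouse. Its log2 signals were 9.57, 9.44 and 9.33 in the SDS controls and 8.21, 8.97, 8.25, 9.48 and 8.19 after restriction. Mouse TS77 lay inside the range of the controls and TS75 between, while the other 3 were more than 1 log2 unit below every control. The log2 fold change was -0.83 (SE 0.25, adjusted p = 0.106, limma), and without TS77 it was -1.04 and called (adjusted p = 0.0185). TS77 was also the highest restricted mouse for Fn1 (7.46, against 6.55 to 6.95 in the other 4 and 7.28 to 7.53 in the controls), which had -0.51 (SE 0.18, adjusted p = 0.175) with it and -0.65 (adjusted p = 0.0392) without it.

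By its brightest probe set, Col4a1 had the lowest log2 fold change of its 6 comparisons under 30%DR. The SDS controls read 10.14, 10.10 and 10.14 and the restricted mice 9.52, 9.86, 9.56, 9.56 and 9.43, without overlap. The log2 fold change of -0.55 (SE 0.12, adjusted p = 0.0148, limma) is under the fold change minimum, at 1.46-fold. With the Gapdh 3′ excess over 5′, a measure of RNA integrity, as a covariate Col4a1 was called lower (-0.60, adjusted p = 0.00278) and Adamts1 was not called (-0.64, adjusted p = 0.0598). This excess was 1.27 ± 0.41 (SD, n = 3) in the SDS controls and 1.59 ± 0.50 (SD, n = 5) in the restricted mice. The other Col4a1 probe set gave -0.46 (SE 0.19, adjusted p = 0.3). Sparc had -0.60 (SE 0.23, adjusted p = 0.228) with all restricted mice below the controls. Lox and Adamts5, which were called after fasting, had 0.10 (SE 0.19) and -0.09 (SE 0.22). The median of the 10 members was -0.53 on the log2 scale, against 0.00 for all probe sets, and 5 of 18 probe sets had all restricted arrays below the controls, against 4.07% of all probe sets, and 0 had them above (4.35%).

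**Figure D3:**
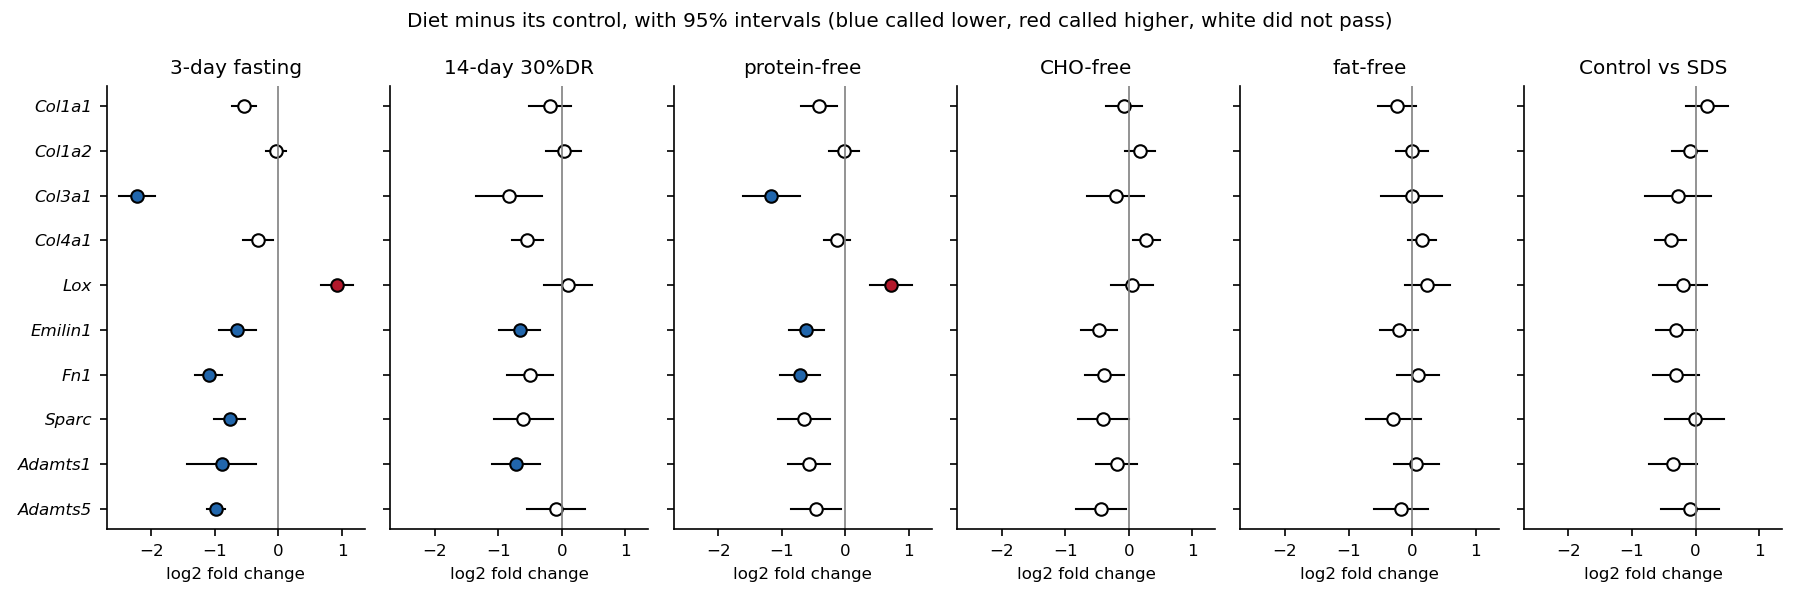
Log2 fold change of each member (x axes, diet minus its control group, brightest probe set) in the 6 comparisons, with 95% intervals. Blue points were called lower, red points higher, and white points were not called. Emilin1 is lower in fasting, 30%DR and protein-free, Col3a1 and Fn1 in fasting and protein-free, where Lox is higher, and no point is filled for the CHO-free, fat-free and Control diets.

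On the CHO-free diet no member was called, although 3.6% of all probe sets were (1.35% higher and 2.25% lower). By limma 7 of the 18 member probe sets had an unadjusted p under 0.05, against 24.4% of all probe sets. Col3a1 lay between 8.83 and 9.15 (mean 8.97 ± 0.14, SD, n = 5), within the range of the Control mice (8.81 to 9.60), and had a log2 fold change of -0.20 (95% interval -0.65 to 0.25). Emilin1 read 4.54, 5.04, 5.09, 4.83 and 4.73, below every Control mouse, and had -0.47 (SE 0.14, adjusted p = 0.0272, limma), under the fold change minimum. Over the alternatives run this value was -0.53 to -0.32, with an adjusted p of up to 0.489 (limma). RNA integrity differed too, with a Gapdh 3′ excess over 5′ of 1.85 ± 0.62 (SD, n = 5) here and 0.82 ± 0.14 (SD, n = 5) on the Control diet. Fn1 had -0.38 (SE 0.15, adjusted p = 0.109) and Lox 0.05 (95% interval -0.28 to 0.38). Col4a1 had 0.28 (95% interval 0.07 to 0.49, adjusted p = 0.0819), on the side opposite to fasting and 30%DR. Its Control group held 1 low mouse, TS30, at 9.31, where the other 4 read 9.77 to 9.93 and the CHO-free mice 9.86 to 10.13. The other Col4a1 probe set gave 0.08 on this diet. All CHO-free arrays lay below the Control arrays for 1 of 18 probe sets and above for 0, where 2.37% and 3.02% of all probe sets did. The median of the 10 members was -0.20, against 0.03 for all probe sets.

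On the fat-free diet 0 member probe sets and 0 of all probe sets were called, and by limma 0 of the 18 had an unadjusted p under 0.05, where 4.63% of all probe sets did. For 0 of the 18 did all fat-free arrays lie below or above the Control arrays, against 0.609% and 1% of all probe sets. Col3a1 had -0.01 (95% interval -0.48 to 0.47), Fn1 0.09 (95% interval -0.25 to 0.42) and Lox 0.24 (95% interval -0.11 to 0.59). These intervals do not reach the values found for Col3a1 and Fn1 on the protein-free diet. Between the Control diet and the SDS chow, 0 members were called, against 0.0465% of all probe sets, and 1 of 18 had an unadjusted p under 0.05, against 6.34%. That was the brightest of Col4a1, with -0.39 (SE 0.12) and with all 5 Control mice, at 9.31 to 9.93, below the 3 SDS mice. The other Col4a1 probe set gave -0.05. All Control diet arrays lay below the SDS arrays for 1 member probe set and above for 1, against 2.92% and 1.8% of all probe sets.

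The diets were then set against each other by testing the differences themselves over 8 contrasts, in which 20 of 144 values of the member probe sets were called. Of these, 11 were of brightest probe sets and are named below, and the rest were of other member probe sets. The fasting effect had 4 called member probe sets against 30%DR, 3 against protein-free and 8 against CHO-free. Col3a1 has only 2 probe sets, so other members were among the calls in each. Without protein rather than without CHO, Col3a1 was lower by 0.96 on the log2 scale (-0.96, SE 0.22, adjusted p = 0.00633, limma) and Lox higher by 0.66 (SE 0.16, adjusted p = 0.0101), with 2.44% of all probe sets called. The dimmer probe sets, not above background there, were not called, at -0.15 for Col3a1 and 0.12 for the second of Lox. The Gapdh 3′ excess over 5′ was 1.34 ± 0.59 (SD, n = 5) without protein and 1.85 ± 0.62 (SD, n = 5) without CHO. No contrast between diets was fitted with it as a covariate. Without protein rather than without fat, Col3a1 (-1.15, SE 0.23) and Fn1 (-0.80, SE 0.16) were lower, each with an adjusted p of 0.0195, with 0.241% of all probe sets called. Neither of these was called without protein-free mouse TS51 or TS52 or without fat-free mouse TS37 or TS42. The fall of Col3a1 after fasting was larger than the change after 30%DR (-1.40, SE 0.32, adjusted p = 0.00909), on the protein-free diet (-1.07, SE 0.30, adjusted p = 0.0401) and on the CHO-free diet (-2.03, SE 0.30, adjusted p = 4.1e-05), where 2.24%, 2.33% and 2.84% of all probe sets were called. Fasting and 30%DR were each compared with their own SDS mice, and a level shift between the cohorts cancels within each effect. A difference in the scale of the signals, from the other hybridization date or the separate normalization, does not cancel. In the contrasts with fasting it cannot be told apart from the diets.

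For Emilin1 no difference between diets was called, and the 30%DR effect was -0.05 (SE 0.21) from the protein-free effect. The effect of 30%DR on Col4a1 was lower than that of the CHO-free diet by 0.82 on the log2 scale (-0.82, SE 0.16, adjusted p = 0.00745, limma), with 0.62% of all probe sets called. By the same brightest probe set the control groups of these effects differed for Col4a1 themselves, at -0.39 for Control minus SDS, and this gap is part of the -0.82. By the other Col4a1 probe set the gap was -0.05. With both control groups pooled the 30%DR value of Col4a1 was -0.30. The fasting effect on Col4a1 was also lower than the CHO-free effect (-0.59, SE 0.15, adjusted p = 0.0178), and so was that on Fn1 (-0.72, SE 0.21, adjusted p = 0.042), while that on Lox was higher (0.87, SE 0.22, adjusted p = 0.018). The other Col4a1 probe set, also above background, was called in neither contrast, at -0.53 (SE 0.25, adjusted p = 0.418) for 30%DR and -0.50 (SE 0.22, adjusted p = 0.236) for fasting. Between 30%DR and protein-free and between CHO-free and fat-free 0 members were called, with 0.0222% and 1.25% of all probe sets. By limma the first of these contrasts had 3 of 18 member probe sets at an unadjusted p under 0.05, of Lox (brightest -0.62, SE 0.25) and Col4a1 (-0.42, SE 0.16), and the second had 1, of Fn1 (-0.47, SE 0.16). The share of all probe sets at this p was not computed for these contrasts, so the counts are a description only.

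Mice of 1 group also differed from each other, and Col3a1 and Fn1 varied together. After removing the mean of each group, their Pearson r was 0.73 over 36 arrays, the highest of the 45 pairs of members, where the median was 0.18. It was 0.40 over the 9 arrays of the fasting cohort and 0.78 over the other 27. These points share RNA integrity and array processing, so r is a description. Relative to their group means, TS77 and TS49 are the highest of all mice for both genes and TS52 is the lowest. Lox had an r of 0.22 with Col3a1 and 0.15 with Fn1.

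**Figure D4:**
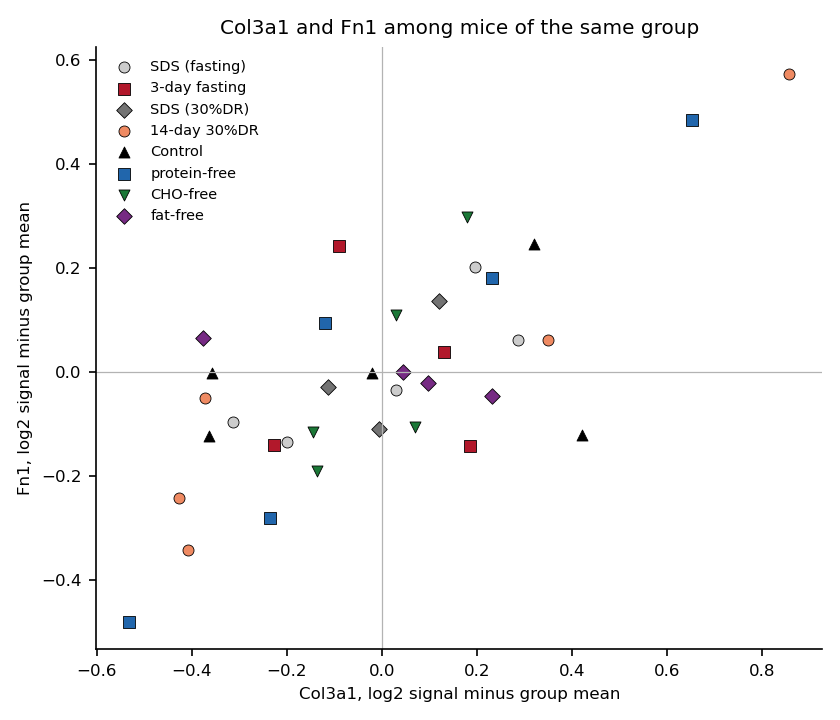
Fn1 (y axis) against Col3a1 (x axis), each as log2 signal minus the mean of its group, 1 point per mouse and 1 colour and shape per group. The cloud rises from lower left to upper right (r = 0.73 over 36 arrays), with a 30%DR and a protein-free mouse at the top right and a protein-free mouse at the bottom left.

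Outside the members, the 8 genes most like the mean of Col1a1, Col1a2 and Col3a1 among mice of 1 group, of 10369 genes ranked by this r, were Ebf1 (0.73), Parp3 (0.71), Fstl1 (0.68), Dpt (0.67), Ddx59 (0.67), Fbxl14 (0.67), Vim (0.66) and Timp2 (0.65). The probe sets of Col1a1 and Col1a2 are not above background, so 2 of the 3 profiles in this mean carry little signal and the order describes the mean only. Dpt encodes the matrix protein dermatopontin, Vim the intermediate filament vimentin and Timp2 an inhibitor of metalloproteinases. In the 9 arrays of the fasting cohort r was 0.57 for Ebf1 and Fstl1 but 0.23 for Parp3 and -0.04 for Timp2, and in the other 27 arrays all 8 had 0.69 to 0.76.

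Further matrix genes were described from 8 lists of 141 genes, of which 125 are measured. After fasting 12 of these were lower and 3 higher, against 6.45% of all genes by their brightest probe set (3.52% lower, 2.93% higher), and their median log2 fold change was -0.06 (0.00 over all probe sets). Among the lower genes were collagens, with Col14a1 at -1.28 (SE 0.08), Col5a2 of fibrillar type V at -1.01 (SE 0.09) and Col6a3 and Col6a2 of the microfibrillar type VI at -0.95 (SE 0.13) and -0.90 (SE 0.11). Col27a1, a fibrillar collagen gene known from cartilage, went up by 1.06 (SE 0.10), from 7.24 ± 0.12 (SD, n = 5) to 8.30 ± 0.20 (SD, n = 4). Of 18 genes that process and crosslink collagen 3 were lower, namely Pcolce (-1.23, SE 0.09), whose product enhances the cleavage of procollagen, the collagen chaperone gene Serpinh1 (-0.94, SE 0.09) and the lysyl hydroxylase gene Plod2 (-0.74, SE 0.08).

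In the basement membrane list Lama3 (-1.17, SE 0.09) and Col15a1 (-0.72, SE 0.10) were lower of 17. Of 20 proteases and inhibitors Adamts15 (-0.64, SE 0.18) and Adamts9 (-0.59, SE 0.15) were lower and the metalloproteinase gene Mmp11 was higher (0.66, SE 0.11). Of 25 receptors and TGF-beta genes, the integrin gene Itgb6 was lower (-0.62, SE 0.08) and the co-receptor gene Tgfbr3 higher (0.59, SE 0.07). Of the 14 elastic fibre genes and the 14 adhesive and matricellular genes 0 were called by limma. At an unadjusted p under 0.05 (limma) were 4 and 6 of them, as were 59 of all 125 further matrix genes. The share over all probe sets is not given for this p after fasting, so these counts are a description only.

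On the protein-free diet Col6a2 (-0.81, SE 0.18) and Col6a3 (-0.76, SE 0.15) were lower, and Mmp11 (0.68, SE 0.13) and the urokinase gene Plau (0.63, SE 0.16) higher, which is 4 of 125 against 1.02% of all genes (0.497% lower, 0.526% higher). After 30%DR 3 were lower and 0 higher against 1.12% (0.608% and 0.509%), and these were Itga6 (-1.01, SE 0.11), Serpinh1 (-0.91, SE 0.19) and Itgb6 (-0.59, SE 0.14). On the CHO-free diet 3 were lower and 1 higher against 4.11% (2.61% and 1.5%). Col27a1 rose by 1.61 (SE 0.14, from 7.90 ± 0.22 to 9.51 ± 0.28, SD, n = 5 each), Itgb6 (-0.83, SE 0.12) and Col14a1 (-0.71, SE 0.18) fell, and Smad2 (-0.90, SE 0.24), a carrier of TGF-beta signals, fell with an SD of 0.80 between the CHO-free mice. The CHO-free kidneys also had a Gapdh 3′ excess over 5′ of 1.85 ± 0.62 (SD, n = 5), against 0.82 ± 0.14 (SD, n = 5) on the Control diet. With it as a covariate 2 of the 125 genes were called, against 4 without it. On the fat-free and Control diets 0 of the 125 were called, against 0% and 0.0702% of all genes. By limma 7 and 19 of the 125 had an unadjusted p under 0.05, where 4.63% and 6.34% of all probe sets did.

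**Figure D5:**
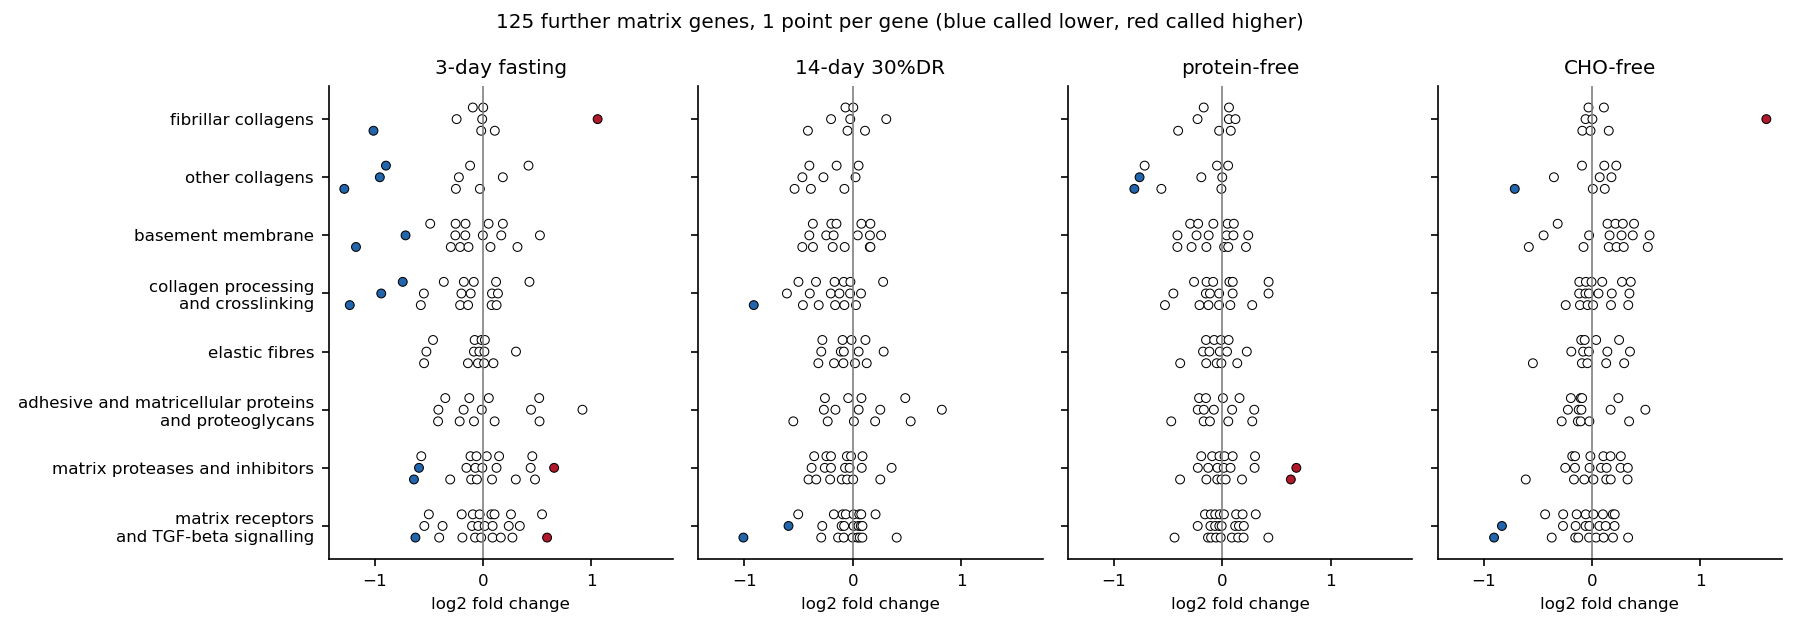
Log2 fold change (x axes) of the 125 further matrix genes in their 8 lists (y axis) after 3-day fasting, 30%DR, the protein-free and the CHO-free diet, 1 point per gene by its brightest probe set. Blue points were called lower and red points higher. Most points lie near 0, and Col27a1 stands alone on the right of its list after fasting (1.06) and on the CHO-free diet (1.61).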

How the data were processed

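Each of 36 mice gave kidney RNA for 1 array of the type Affymetrix HT MG-430 PM. The deposited values are log2 signals that the authors made by RMA, which corrects the background, quantile-normalizes the arrays and summarises probes by median polish, with the fasting cohort normalized apart from the other arrays because of its hybridization date. No source used here gives the RMA version. Array medians were 4.15 to 4.21 (log2) for fasting and its controls and 3.62 to 3.76 elsewhere, and levels were not compared between cohorts. The values were used as deposited. Scanner files were not used here. The authors left out arrays that they judged outlying in the SDS, fasting and fat-free groups. SDS mice were assigned to a cohort by the animal numbers in the labels.

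limma 3.58.1 in R 4.3.3 was fitted to the 9 arrays of the fasting cohort and to the 27 others, with default eBayes. Differences with the fasting effect were fitted over all 36 arrays, 1 mean per group. The calling thresholds were those of the study, a fold change of 1.5 or more with a Benjamini-Hochberg rate below 5% across the 45141 probe sets. All p-values are two-sided, and the spread they rest on is that between mice. The number of arrays limits the precision. Symbols came from the platform annotation, in which 28898 probe sets have 1 symbol, 551 have several and 15692 have none. A gene with several probe sets is given by the one with the highest mean over 36 arrays unless others are named. The 23 nonspecific background control probe sets of the array had means of 2.41 to 4.56 in the fasting cohort and 2.15 to 4.44 in the other.

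Named were all 10 members, up to 3 called genes of each further matrix list with the largest changes, the 8 genes most like the mean of the 3 fibrillar collagens, and marker genes of 11 lists where a list moved with the members. The members and lists were chosen with earlier results of these data known. Promoters came from RefSeq on GRCm38.p6. The fit was tested on simulated data. Tables and figures were made with Python 3.11.15, pandas 2.3.3 and matplotlib 3.10.9.

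Alternatives were a trended and robust prior, subtraction of each array's median, quantile normalization, no fold change minimum, probe sets above the median signal, array weights, only the compared groups in the model, the Gapdh 3′ minus 5′ difference or the adipocyte markers as a covariate, joined controls for 30%DR, other probe sets of a gene, and each array left out in turn.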

Additional observations from a re-analysis of the deposited data

Results flagged for a closer look

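In the Control group the Col4a1 signal of mouse TS30, 9.31, lay apart from the other 4, which read 9.77 to 9.93. It was the 1 value far from its group among 70 groups of member values tested, and chance flags about 1 in 20 groups.

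The other flagged results are differences between the effects of 2 diets that passed the test of the difference itself (log2 scale, limma), by the brightest probe set of each gene. For protein-free minus CHO-free these were Lox at 0.66 and Col3a1 at -0.96, and for protein-free minus fat-free Fn1 at -0.80 and Col3a1 at -1.15. The 30%DR effect minus the CHO-free effect was -0.82 for Col4a1. The fasting effect on Col3a1 minus the effect of 30%DR was -1.40, minus that of the protein-free diet -1.07 and minus that of the CHO-free diet -2.03. The fasting effect minus the CHO-free effect was 0.87 for Lox, -0.72 for Fn1 and -0.59 for Col4a1. The CHO-free comparisons with 30%DR and fasting share the Control group, in which TS30 was low for Col4a1. In the 30%DR contrast the gap between the Control and SDS groups (-0.39 for Col4a1 by its brightest probe set, -0.05 by the other) also enters the value.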

How the results depend on the processing

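No called member value changed direction under any alternative run. Of the called members, Col3a1 and Fn1 after fasting and on the protein-free diet, and Lox, Sparc and Adamts5 after fasting, were called under every alternative run on their brightest probe set. Emilin1 on the protein-free diet was not called with array weights (-0.56) or with only the compared groups in the model (adjusted p = 0.0607, limma). For 30%DR, 1 member probe set was called with only the compared groups in the model and 0 with the adipocyte covariate, against 2. With the Gapdh covariate 2 were called, Emilin1 and Col4a1 (-0.60), the latter in place of Adamts1 (-0.64, adjusted p = 0.0598, limma), and with both control groups pooled Col3a1 (-0.66) and Sparc (-0.60) were called instead of Emilin1 and Adamts1. On the CHO-free diet 1 member probe set was called without a fold change minimum and 1 with the Gapdh covariate, against 0.

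Values of members that were not called changed sign in 47 cases, over 17 values, and none was called there (lowest adjusted p 0.83, limma). With the Gapdh covariate Col1a2 was at -0.036 after 30%DR, -0.032 on the CHO-free diet and 0.0014 on the Control diet, Adamts1 at 0.054 on the CHO-free diet and Adamts5 at 0.030 on the Control diet. With the adipocyte covariate Col3a1 on the fat-free diet was at 0.0011, and on the Control diet Adamts5 was at 0.065 and Sparc at 0.19. With array weights Col1a2 and Col3a1 on the fat-free diet were at 0.012 and 0.018, and after subtraction of array medians Sparc on the Control diet was at 0.011. Other probe sets gave -0.043 for Lox and 0.061 for Adamts5 after 30%DR, -0.089 for Col4a1 on the fat-free diet, and 0.13 and 0.11 for Adamts5 on the Control diet. With 1 mouse left out Col1a2 ranged from -0.077 to 0.0016 after fasting, -0.040 to 0.11 after 30%DR, -0.074 to 0.019 on the protein-free diet and -0.10 to 0.10 on the fat-free diet. Col3a1 ranged from -0.098 to 0.12 and Adamts1 from -0.060 to 0.17 on the fat-free diet. Lox ranged from -0.074 to 0.38 after 30%DR, -0.049 to 0.13 on the CHO-free diet and -0.37 to 0.089 on the Control diet. Adamts5 ranged from -0.22 to 0.17 after 30%DR and -0.22 to 0.18 on the Control diet, Col1a1 from -0.22 to 0.060 on the CHO-free diet, and Sparc from -0.21 to 0.21 on the Control diet.

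Of the further matrix genes after fasting, 38 were called without a fold change minimum, against 15. After 30%DR there were 5 with joined controls, against 3, and on the protein-free diet 2 with only the compared groups in the model, against 4. On the CHO-free diet there were 7 after subtraction of array medians, 14 without a fold change minimum and 2 with the Gapdh covariate, against 4. On the Control diet there was 1 with array weights, against 0. The cause of these changes was not tested.

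With 1 mouse left out, the count of member probe sets was 9 to 11 after fasting, 0 to 3 after 30%DR, 3 to 5 on the protein-free diet, 0 to 1 on the CHO-free diet (1 without TS36) and 0 on the fat-free and Control diets. For 30%DR it was 0 without SDS mice TS55, TS56 or TS58 or restricted mouse TS78, and 1 without TS73, TS75 or TS76. The count of further matrix genes was 13 to 18 after fasting, 1 to 5 after 30%DR (1 without TS56 or TS58, 5 without TS75), 2 to 6 on the protein-free diet (2 without TS52), 4 to 8 on the CHO-free diet (8 without TS32) and 0 to 1 on the Control diet (1 without TS26). Of the differences, protein-free minus fat-free had 0 to 2, and fasting minus protein-free 1 to 4 (1 without K339, K344 or TS49). Fasting minus CHO-free had 4 to 8 (4 without K347, K339 or K340, 5 without K349, TS30 or TS36). The other 5 contrasts stayed within 1.5 times their counts.

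No paired analysis was possible because the labels number the animals and give no replicate numbers that groups share.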
